A study of Drosophila melanogaster with 4 samples.

Results

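Chromosome arm 3R is the right arm of chromosome 3 of Drosophila melanogaster, and its HP4 regions were taken as every region that the authors' combined list places on the sequence named 3R, leaving out the separate heterochromatic scaffold 3RHet. This gave 331 regions of the 4366 in the combined list. The lists made from single libraries placed 54 of 2703 regions (replicate 1) and 62 of 2674 regions (replicate 2) on the arm. Chromatin came from wild type embryos of the Oregon-R-modENCODE strain, staged at 14 to 16 h and fixed with formaldehyde. It was immunoprecipitated with the HP4 antibody Q4072 in 2 ChIP libraries, and 2 libraries of input chromatin went with them. There was 1 genotype, 1 stage and no treatment, so the values below compare positions and lists, not conditions, and 2 replicates allow no test between them. Whole embryos mix many tissues, so a region cannot be assigned to a cell type. Separate collections of embryos are not stated for the replicates, so their spread may be a technical one, and read depths are unknown from the region lists.

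HP4 is a chromatin protein known in Drosophila as a binding partner of HP1, the protein that recognises methylated histone H3 in heterochromatin. Heterochromatin is the compact, repeat-rich chromatin around the centromeres, and the arms themselves are mostly gene-rich euchromatin. A position near 1 lies at the centromere-proximal end of the sequence named 3R, which does not include 3RHet. A position near 27905053, the length of the arm in FlyBase release 5, lies at its telomeric end. Each region carries a start, an end and a score given by the authors. The scale of the score is not stated, so scores are used to order regions within a list and are set beside each other between lists as given. The gene table at hand is of release 6 and no release 5 genome was used, so the regions were not assigned to genes and their sequences are not shown.

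HP4 was sparse on 3R, and what was called there was short. Replicate 1 covered 0.380% and replicate 2 covered 0.452% of the arm, a mean of 0.416% ± 0.0512 (SD, n = 2). The combined list covered 1.71%. Median widths were 1637.5 bp in replicate 1 and 1804 bp in replicate 2, and 1227 bp in the combined list. The widest region was 7417 bp in replicate 1, 7438 bp in replicate 2 and 8114 bp in the combined list. Median scores were 0.739 and 0.743 in replicates 1 and 2 and 0.526 in the combined list. The combined list therefore held more regions on this arm than either library alone, with a lower median width and median score. The same held on 2L, 2R, 3L and X. Its highest score on 3R was 3.94, above the 2.20 and 2.50 of replicates 1 and 2.

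HP4 regions lay along nearly the whole arm, and the proximal 1 Mb was the fullest bin of the combined list, with 4.59% of it covered. Of 28 bins of 1 Mb (the last one shorter), every bin held at least 1 combined-list region, with a median of 11.5 per bin. The bins with most regions were the proximal 1 Mb with 28, the bin from 2 to 3 Mb with 22 and the bin from 5 to 6 Mb with 17. The bin with fewest, from 20 to 21 Mb, held 1. It contained part of the longest stretch with no combined-list region, 708910 bp from 19992584 to 20701493.

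The replicate lists thinned out in the same parts of the arm. Both had a region in 20 bins, and neither had one in 4 bins, those starting at 8, 16, 20 and 27 Mb. The bin from 2 to 3 Mb had the highest count in replicate 1, with 7 regions, and shared the highest count in replicate 2, with 6. The bins starting at 5 and 17 Mb also held 6 regions each in replicate 2, against 3 and 5 in replicate 1. Across the 28 bins the covered bases of the replicates had a Spearman rho of 0.865, a description over bins that share the same libraries. The most distal region of either replicate list ended at 26913318, and the last bin, from 27 to 27.9 Mb, held 6 combined-list regions that neither replicate overlapped.

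**Figure D1:**
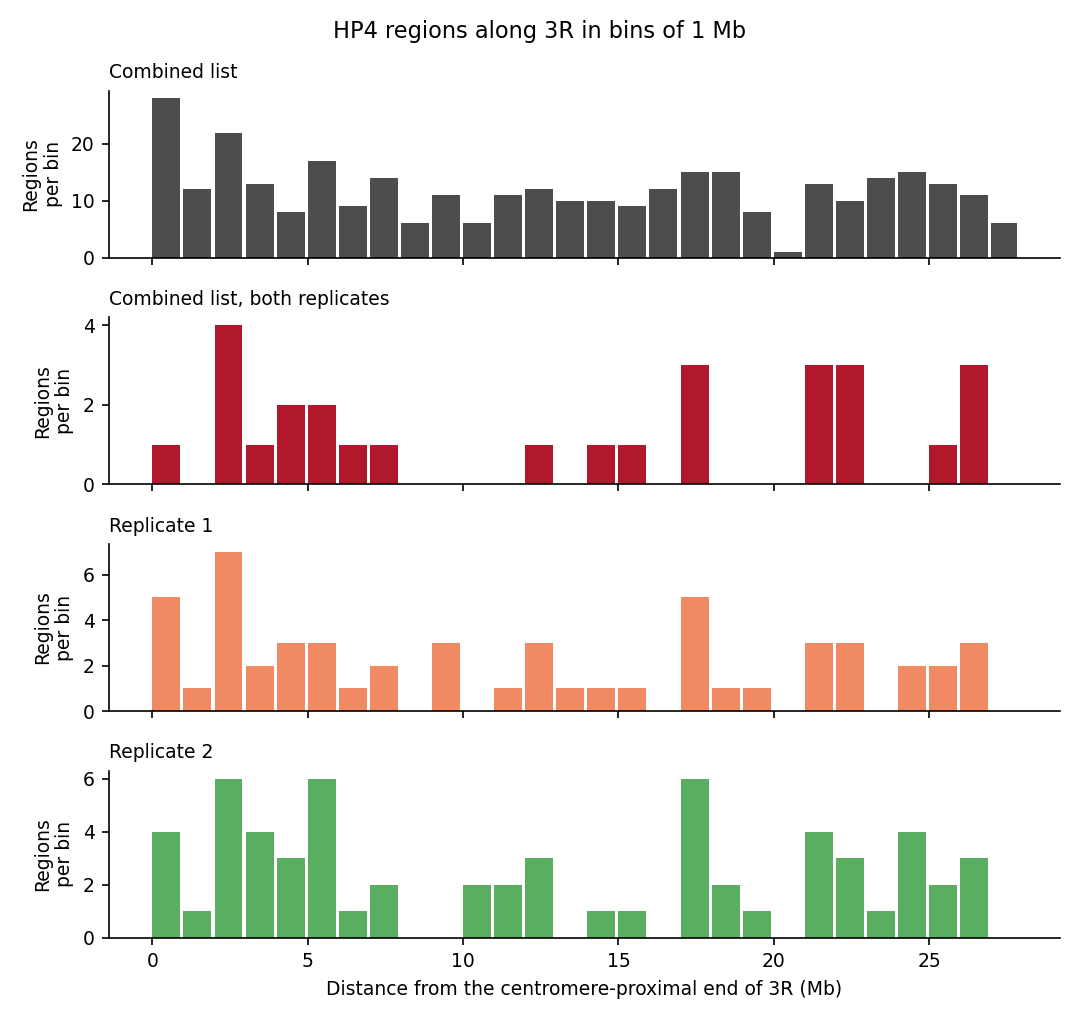
Number of HP4 regions (y axis) in bins of 1 Mb along 3R (x axis, distance from the centromere-proximal end in Mb) for the combined list, its regions overlapped by both replicates, and the lists of replicates 1 and 2. The y scales differ between panels, and the bins from 8 to 9, 16 to 17 and 20 to 21 Mb and the last bin are empty in both replicate lists.

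The centromere-proximal 5 Mb was the most covered part of the arm. It held 18 regions in each replicate, covering 0.796% of it in replicate 1 and 0.843% in replicate 2. The next 5 Mb held 9 regions in each, covering 0.294% and 0.310%. Between 10 and 15 Mb coverage was 0.172% and 0.273%, the lowest of the 5 Mb windows in either replicate, and it was 0.469% and 0.510% in the window from 25 Mb to the telomeric end. The proximal 5 Mb was covered 2.53 times as densely as the remainder, as a mean of the replicates, and the proximal 1 Mb 2.33 ± 0.439 times (SD, n = 2).

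The value for the proximal 1 Mb rested on few regions. Replicate 1 had 5 regions there and replicate 2 had 4, and a single shared region, from 873423 to 877550 in the combined list, supplied much of the covered length. Without it the ratio was 1.37, a value computed after the data were seen. With a proximal window of 2 Mb it was 1.32, since the bin from 1 to 2 Mb held 1 region in each replicate. The most proximal region of the combined list began at base 16 and ended at 1271, and neither replicate overlapped it. The most proximal replicate regions ran from 104934 to 106441 in replicate 1 and from 19610 to 20976 in replicate 2.

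Set beside the other large arms, 3R differed most near the proximal end of its sequence. Distances were measured from the end of each sequence, and 3RHet was left out. How much heterochromatin each arm's sequence includes was not examined, so the proximal windows may hold unlike chromatin. Within 3 Mb of the proximal end 3R held 13 and 11 regions in replicates 1 and 2. The same window held 101 and 83 on 2L, 188 and 151 on 2R, 167 and 159 on 3L, and 41 and 42 on X. Over whole arms 3R carried 2.08 ± 0.203 regions per Mb (SD, n = 2), and the other arms ranged from 4.71 ± 0.284 on X to 9.88 ± 1.27 on 2R. In each replicate 3R was below every other large arm by more than the spread between replicates.

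Away from the centromere the gap was small. More than 3 Mb from the proximal end, 3R carried 1.85 ± 0.284 regions per Mb. Arm 2R carried 2.18 ± 0.0390, 2L 2.35 ± 0.141, 3L 2.39 ± 0.230 and X 3.30 ± 0.291. Arm 3R had the lowest density in both replicates, at 1.65 and 2.05 per Mb. The next arm was at 2.20 in replicate 1 and 2.15 in replicate 2, and in replicate 2 that gap was less than the spread between the replicates of 3R. The gap to X exceeded the spread on either arm. Median scores of distal regions were 0.739 ± 0.00349 on 3R, 0.705 ± 0.0484 on 3L, 0.732 ± 0.0359 on 2R, 0.759 ± 0.0346 on 2L and 0.863 ± 0.0508 on X. Median widths there were 1723.5 ± 117 bp on 3R and between 1714 and 1831 bp on the other 4 arms, within the replicate spread of 3R.

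**Figure D2:**
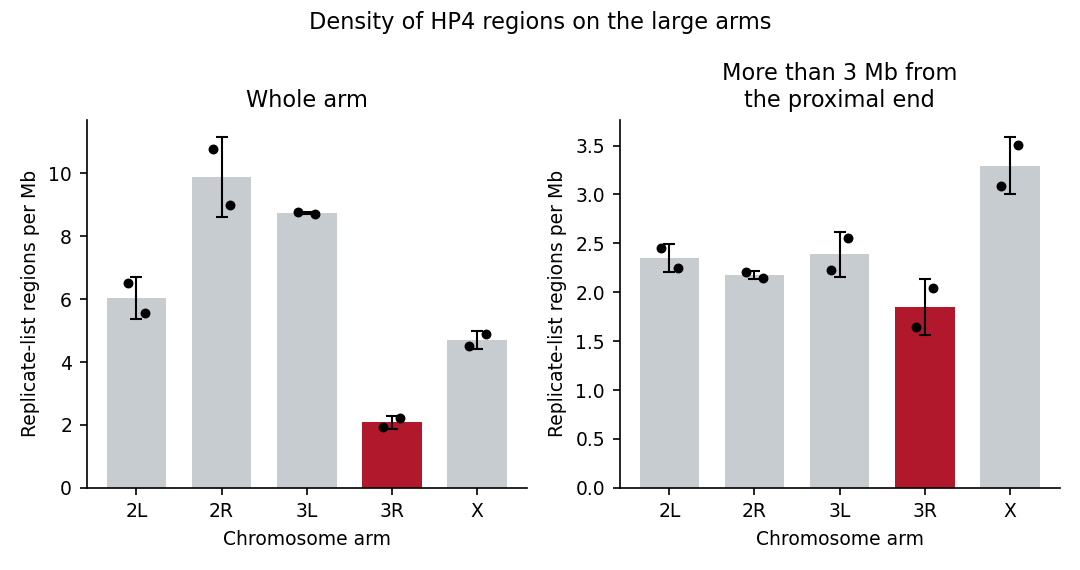
Regions per Mb in the replicate lists for each large chromosome arm, over the whole arm (left) and more than 3 Mb from its centromere-proximal end (right). Bars are means of 2 replicates, points are the replicates and error bars are the SD, and 3R is at 2.08 per Mb in the left panel and 1.85 in the right.

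Few of the 331 regions were called in both libraries. Both replicates overlapped 28 of them by at least 1 bp, which is 8.46% (exact 95% interval 5.69% to 12.0%, counting error only), against 37.6% of the combined list over all sequences. A further 43 were overlapped by 1 replicate, 16 by replicate 1 and 27 by replicate 2, which together is 13.0% against 17.9% over all sequences. Neither replicate overlapped 260, or 78.5% (73.7% to 82.9%), against 44.5% over all sequences. The share overlapped by both lies near that of the other large arms away from the centromere. Beyond 3 Mb it was 8.55% on 3R (5.50% to 12.6%) and 9.34% over 2L, 2R, 3L and X.

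From the side of the libraries, about equal parts of each list recurred in the other. Of the 54 replicate 1 regions, 28 had a partner in replicate 2, or 51.9% (exact 95% interval 37.8% to 65.7%), against 82.8% over all sequences. Of the 62 replicate 2 regions, 28 had a partner, or 45.2% (32.5% to 58.3%), against 79.7%. Each matched region had a single partner. Beyond 3 Mb the shares were 56.1% and 45.1% on 3R and ran from 42.6% to 60.0% on the other arms, with overlapping intervals. The covered bases of the replicates had a Jaccard index of 0.398, the shared bases divided by those covered in either.

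Members found in both replicates were wider than the rest and mostly higher in score. Their median width was 2122.5 bp, with a lowest value of 1919 bp and a highest of 8114 bp. Members found in neither had a median width of 1152.5 bp, and 187 of those 260 were narrower than 1301 bp, the width of the narrowest region in the replicate lists over all sequences. Median combined-list scores were 0.877 for members found in both, 0.466 for those found in 1 and 0.527 for those found in neither. The score ranges overlapped, from 0.249 to 2.12 for both and from 0.297 to 3.94 for neither. The part that width and score played in the authors' calling is not given, so these contrasts describe the lists and were not tested.

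Presence in both replicates was more common among high combined scores, except at the very top. Of the 40 highest-scoring regions of 3R, 18 were found in both replicates, and of the 20 highest, 12 were. In the upper 25% by score the share was 27.4%, against 1.22%, 1.22% and 3.61% in the next, the next and the lowest 25%. The 6 highest-scoring regions, however, were overlapped by neither replicate, and their widths ran from 1003 to 1744 bp. The region at the top, from 12582097 to 12583122, was 1026 bp wide with a score of 3.94. The next ran from 23894177 to 23895179, was 1003 bp wide and scored 3.36, a score that 9 regions on other sequences share exactly. The regions from 192791 to 194534 and from 13341293 to 13342487 both scored 2.82, with 8 more regions on other sequences at the same score (tolerance 1e-09). The fifth, from 21153659 to 21154706, scored 2.47 and shared that score with 4 regions elsewhere. The sixth lies outside the rule for named regions and was named after its value was seen: it ran from 5108225 to 5109725 and scored 2.12. On the other 4 large arms, too, the highest combined score exceeded the highest among regions found in both replicates. The values were 3.16 against 1.97 on 2L and on 2R, 3.53 against 2.09 on 3L and 3.53 against 2.58 on X. The shares by score are given for 3R alone.

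Repeated scores were common among the regions found in neither replicate. Of those 260, 53 had exactly the score of another member on 3R, and 150 (57.7%) that of some region in the combined list. Over all 331 members these counts were 57 and 170 (51.4%). The neither class makes up 260 of those 331, so its share and that of all members could hardly differ much. The share over all sequences is not given here. Among the 28 found in both replicates, 0 shared a score with another member on 3R and 3 shared one with a region on another sequence. The widest regions found in neither were 3453 bp from 11432765 to 11436217 (score 0.650), 1978 bp from 714281 to 716258 (0.757) and 1977 bp from 26737362 to 26739338 (0.462).

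Presence in both replicates went with width. Of the 195 members narrower than 1.3 kb, 0 were found in both. Of the 89 members from 1.3 to 1.9 kb wide, again 0 were found in both. Of the 33 members from 1.9 to 2.2 kb wide, 18 were found in both, and of the 14 members of 2.2 kb or wider, 10 were. These width limits were set after the values were seen. The narrowest region in the replicate lists over all sequences was 1301 bp wide, so the narrowest class lay below every replicate width. Of its 195 members, 8 were still overlapped by a single replicate. The counts by width are given for this arm alone, so whether other arms show the same was not examined.

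Within the narrow band from 1.9 to 2.2 kb, the score climbed steeply with small gains in width. Over the 18 members found in both replicates the combined-list scores ran from 0.249 to 1.91, and score and width had a Spearman rho of 0.946. For the same 18 regions it was 0.955 with score and width from replicate 2 and 0.610 with those from replicate 1. Over the other 15 members of that width it was 0.320. Regions of this width found in both replicates had a rho of 0.771 on 2R (6 regions), 0.549 on 2L (16 regions), 0.289 on 3L (13 regions) and 0.200 on X (6 regions) beyond 3 Mb. These are descriptions across regions, which share their libraries, and they carry no test. Regions of 1.9 to 2.2 kb made up 78.3% of the 23 members found in both beyond 3 Mb on 3R (exact 95% interval 56.3% to 92.5%). The shares were 59.3% on 2L (38.8% to 77.6%), 50.0% on 3L (29.9% to 70.1%), 30.0% on 2R (11.9% to 54.3%) and 22.2% on X (8.62% to 42.3%). The width band was set on the values of 3R and regions share their libraries, so these shares are not a test of a difference between arms.

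**Figure D3:**
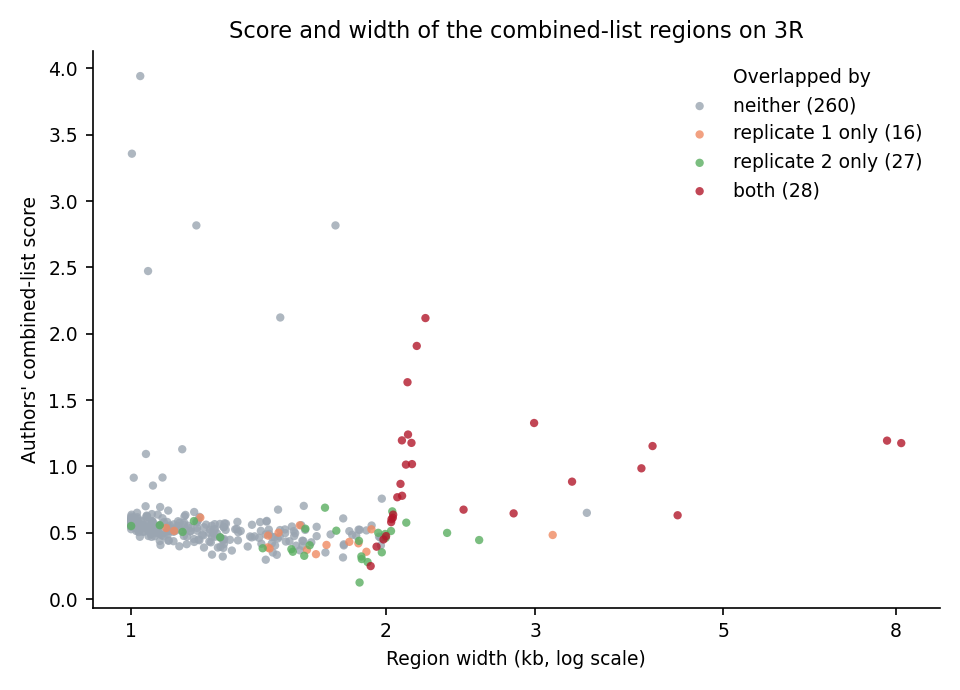
Authors' combined-list score (y axis) against region width in kb (x axis, log scale) for the 331 combined-list regions of 3R, coloured by the replicates that overlap them. The members found in both replicates rise in a steep band from 1.9 to 2.2 kb, and the 6 highest-scoring regions, found in neither replicate, are 1003 to 1744 bp wide.

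The best-scoring replicated sites lay at several places along the arm, and whether they cluster was not tested. The highest, from 2732882 to 2735108, was 2227 bp wide and had a score of 2.12 in the combined list, 1.72 in replicate 1 and 2.50 in replicate 2. The fourth highest lay closer to the centromere, from 2000896 to 2003887. It scored 1.33, with 2.20 in replicate 1 and 2.45 in replicate 2. Its combined score was thus below both replicate scores. Its combined-list width of 2992 bp exceeded the replicate widths of 1634 and 1768 bp. It also stood in a run of 4 combined-list regions within 9.64 kb, from 1999669 to 2009311, of which the other 3 were found in neither replicate.

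A pair of strong sites lay between 17 and 18 Mb. The distal one, below the region at 2732882 alone among replicated regions in combined score, ran from 17404890 to 17407064, was 2175 bp wide and had a combined score of 1.91, against 1.43 in replicate 1 and 2.30 in replicate 2. The proximal one ran from 17233231 to 17235351 and was 2121 bp wide. It scored 1.63, with 1.03 in replicate 1 and 2.05 in replicate 2. Replicate 2 was higher at both sites. Among the regions of its own list on 3R the distal one ranked 3 in each replicate, and the proximal one ranked 8 in replicate 1 and 4 in replicate 2. A weaker replicated region lay next to them from 17444585 to 17446613, with a combined score of 0.580.

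Between 21 and 23 Mb lay 6 further replicated regions, 3 of them among the 10 highest. That from 22706173 to 22708296 scored 1.24, with 0.930 in replicate 1 and 1.48 in replicate 2. That from 21928306 to 21930394 scored 1.20 and differed more between libraries than any other matched region of 3R, with 0.566 in replicate 1 and 1.68 in replicate 2. That from 21018696 to 21020839 scored 1.18, with 0.952 and 1.35. These 3 were alike in width, at 2124, 2089 and 2144 bp, and each scored higher in replicate 2. Nearby, from 22083924 to 22085954 and from 22086235 to 22088324, lay the closest pair of replicated regions, 280 bp apart.

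Of the 5 widest replicated regions of 3R, 4 scored much alike in the replicates. The widest ran from 26899927 to 26908040, 8114 bp near the telomeric end, and had a combined score of 1.18, against 1.29 in replicate 1 and 1.10 in replicate 2. The next ran from 3521675 to 3529481, 7807 bp, and scored 1.19, with 1.13 and 1.26. The shared region of the proximal 1 Mb, from 873423 to 877550, was 4128 bp wide and scored 1.15, with 1.22 and 1.09. For these 3 regions the score of replicate 2 minus that of replicate 1 was -0.192, 0.129 and -0.134, and the widths were 6622 and 7103 bp, 7417 and 7438 bp, and 3677 and 3925 bp in replicates 1 and 2. The region from 21222292 to 21226710 was 4419 bp wide and scored 0.632, with 0.867 and 0.767 in replicates 1 and 2. The fifth, from 2645174 to 2649178, was 4005 bp wide and scored 0.986, with 0.729 and 1.21, so replicate 2 was higher there by 0.486.

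**Figure D4:**
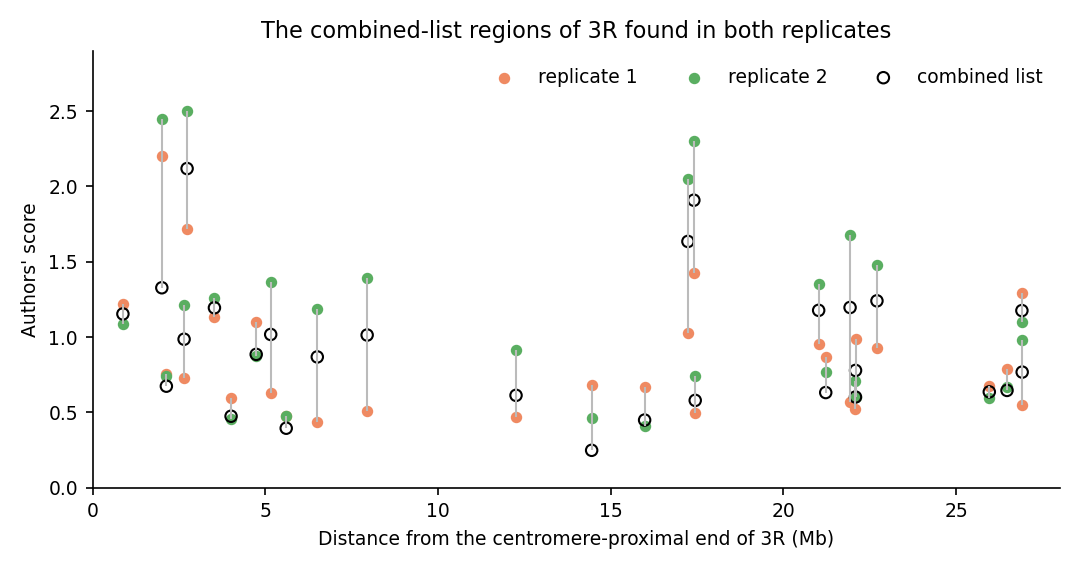
Authors' scores (y axis) in replicate 1, replicate 2 and the combined list for the 28 combined-list regions of 3R found in both replicates, by distance from the centromere-proximal end in Mb (x axis), with a grey line joining the values of a region. The highest scores lie near 2 to 3 Mb and near 17 Mb, and no such region lies between 8 and 12 Mb.

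Replicated sites were spread along the arm, with several wide gaps. Of the 28, 13 lay nearer the centromere than the middle of the arm and 15 lay beyond it. The longest gap with no region found in both replicates was the 4.31 Mb from 7948151 to 12256535. The combined list still had regions in every bin there. No replicated region lay between those ending at 17446613 and starting at 21018696, or between those ending at 22708296 and starting at 25959011. The median gap between neighbouring replicated regions was 510611 bp, against 51638 bp between neighbouring regions of the whole combined list on 3R.

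Where both libraries called a region, they placed its edges close together. The starts differed by a median of 83 bp and the ends by a median of 64 bp. For 12 of the 28 regions both edges agreed within 100 bp, and for 16 within 200 bp. Replicate 2 edges lay closest to those of the combined list, with median offsets of 11 bp inward at the start and 18 bp inward at the end. The replicate 1 edges were 76 and 80 bp inward.

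Scores of matched regions were higher in replicate 2 on balance, with much variation between regions. The difference, replicate 2 minus replicate 1, had a median of 0.217 over the 28 pairs and ran from -0.382 to 1.11. Replicate 2 was higher in 16 and lower in 12. The difference exceeded 0.5 in 8 pairs, and in 0 pairs was it below -0.5. Replicate 2 regions were wider in 22 pairs and narrower in 5. On the other arms the median difference was 0.0140 on 2L (69 pairs), -0.0116 on 2R (114 pairs), -0.00885 on 3L (120 pairs) and -0.0332 on X (45 pairs). Beyond 3 Mb it was 0.192 on 3R (23 pairs) and 0.215 on 2L (27 pairs), so 2L showed a shift of like size. The median difference there was 0.0391 on 3L (25 pairs), -0.00883 on X (27 pairs) and -0.0814 on 2R (19 pairs).

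The shift between libraries was larger in the narrow regions than in the wide ones. The 18 pairs of 1.9 to 2.2 kb had a median score of 0.613 in replicate 1 and 0.946 in replicate 2, with a median difference of 0.414. The 10 wider pairs had medians of 1.12 and 1.10 and a median difference of -0.0568. The score ranges of the sets overlapped in both libraries, and the split by width was made after the values were seen. Over all 28 pairs Pearson's r was 0.683 and Spearman's rho 0.420, a description across regions of the same libraries.

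**Figure D5:**
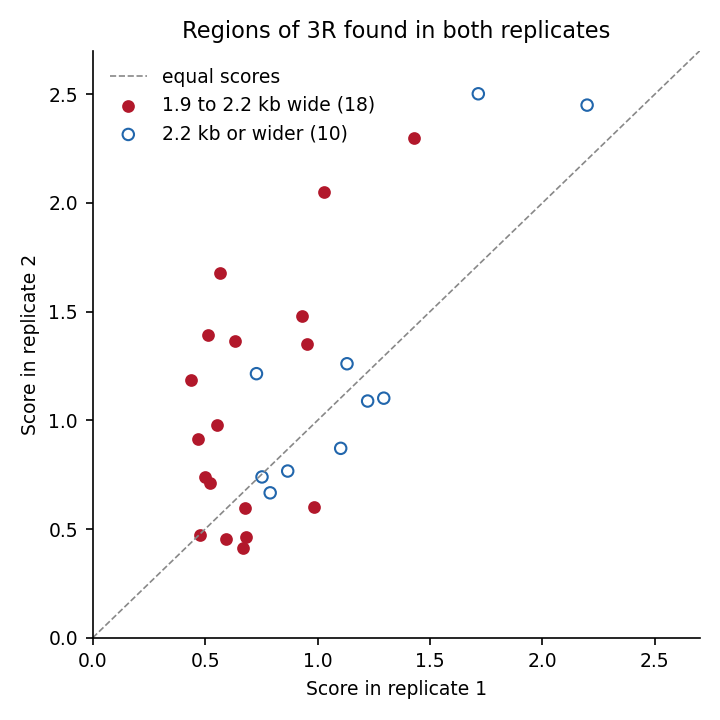
Authors' score in replicate 2 (y axis) against replicate 1 (x axis) for the 28 regions of 3R found in both replicate lists, with filled points for combined-list widths of 1.9 to 2.2 kb and open points for 2.2 kb or wider. The dashed line marks equal scores, and 16 of the 28 points lie above it.

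Regions called in a single library had a lower median width than matched ones, and their highest scores lay below the highest matched scores. Replicate 1 had 26 unmatched regions, scoring 0.521 to 0.979, with widths around a median of 1419 bp. Replicate 2 had 34, scoring 0.324 to 1.00, with widths around a median of 1549.5 bp. The best unmatched regions of replicate 1 ran from 12958012 to 12959342 (score 0.979), from 17935442 to 17937082 (0.877) and from 25006862 to 25008442 (0.861). Those of replicate 2 ran from 17009606 to 17011667 (1.00), from 3873478 to 3874791 (0.947) and from 25675737 to 25677476 (0.837). In replicate 1 matched and unmatched regions had nearly equal median scores, 0.741 and 0.739, whereas in replicate 2 the medians were 1.03 and 0.699.

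The combined list left out a larger share of the replicate regions on 3R than over all sequences. It held 44 of the 54 replicate 1 regions, or 81.5% (exact 95% interval 68.6% to 90.7%), against 98.4% over all sequences. It held 55 of the 62 replicate 2 regions, or 88.7% (78.1% to 95.3%), against 99% over all sequences. Of the 43 replicate 1 regions of the whole genome that the combined list lacks, 10 lay on 3R and 10 on X, and of the 27 of replicate 2, 7 lay on each of these arms. The 17 left out on 3R were regions with no partner. Their scores ran from 0.577 to 0.839 in replicate 1 and from 0.657 to 0.782 in replicate 2, and their median widths were 1388.5 and 1387 bp. Beyond 3 Mb, where the arms are more alike, the shares held were 80.5% and 88.2% on 3R. They were 83.7% and 95.6% on 2L, 90.0% and 92.3% on 2R, 91.7% and 96.4% on 3L, and 86.7% and 89.7% on X. The interval of 3R overlapped that of each of those arms.

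Most combined-list regions of 3R had no neighbour within 10 kb. A neighbour lay within 10 kb for 90 of the 331, or 27.2% (exact 95% interval 22.5% to 32.3%). The share was 17.5% within 5 kb and 43.8% within 20 kb. It was not compared with other arms or with chance placement. Runs of 3 or more regions with neighbours within 10 kb numbered 12 and held 40 members. The longest run had 5 members over 26.7 kb from 12060515 to 12087195, of which 3 were found in 1 replicate and 2 in neither, with scores from 0.125 to 0.551. The others with more than 3 members were the run around the strong site near 2 Mb and one of 4 members over 13.4 kb from 26469410 to 26482833, of which 1 was found in both replicates. No run of 3 or more held more than 1 member found in both, though pairs of such members lay 280 and 3222 bp apart.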

How the data were processed

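Regions of HP4 enrichment on 3R came from 3 lists, 1 for each of the 2 ChIP libraries and 1 combined list of the replicate set. The submitters' processing notes name Bowtie 0.12.7. How regions were called, at what threshold, how replicates were combined and how reads fitting several positions were treated is not given in the sources used here. Each region has 1 deposited score, of unstated scale, and lies in FlyBase release 5 coordinates per the file headers. No values of the 2 input libraries were used, and read depth is unknown, so intervals cover counting error over regions alone.

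Lists were read with Python 3.11.15, numpy 2.4.6, pandas 2.3.3 and scipy 1.17.1 and plotted with matplotlib 3.10.9. Overlap means at least 1 shared bp, and a region belongs to the bin of its midpoint. Shares carry exact Clopper-Pearson 95% intervals. The proximal end is at position 1 on 2R and 3R and at the highest position on 2L, 3L and X. Overlap and coverage functions were tested on simulated lists. No test between replicates or of chance placement was made.

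The arm and the rules were chosen with earlier results of these data known. Named were the 10 highest-scoring and 5 widest regions found in both replicates, the 5 highest-scoring and 3 widest found in neither, the 3 best unmatched regions of each replicate, the end regions of each list, and the fullest and emptiest bins and longest runs. Gene names and sequences were not assigned, for lack of a release 5 reference.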

Additional observations from a re-analysis of the deposited data

How the results depend on the processing

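A recomputed value was taken as kept when it lay within 1.5 times the main value for counts, gaps and the Jaccard index, within the 95% interval for shares of the combined list, and within 1 SD (between replicates, or between matched pairs for their score difference) otherwise. Of 81 such values 51 were kept and 30 moved. With 2 replicates, either one lies within 1 SD of their mean. Leaving out 1 replicate was therefore kept by construction wherever the replicate SD was the limit. The one-to-one matching was fixed too, because each matched region had a single partner. The 51 thus includes values that could not move. No ratio crossed 1 and no difference changed sign. In the combined list the arm had 331 regions against a mean of 58 per replicate, 1.71% coverage against 0.416%, a median score of 0.526 against 0.741, a median width of 1227 bp against 1720.75 bp, a proximal ratio of 2.87 against 2.33, and a density of 0.645 times that of the other large arms against 0.285. In the upper 50% by score there were 29 regions per replicate over 0.240% of the arm, 38.1% had a partner against 48.5%, the median width was 1910.5 bp, the combined-list gap was 128981 bp against 51638 bp, 15.1% had a neighbour within 10 kb, and the density ratio was 0.187. With regions of at least 1500 bp, coverage was 0.330%, the median score 0.782, the share found in both replicates 25.3% against 8.46%, in neither 53.5% against 78.5%, with a partner 63.9%, the gap 148524 bp, the share with a near neighbour 20.2%, and the share held by the combined list 92.3% against 85.1%. The gap was 401926 bp in replicate 1 and 227865 bp in replicate 2. The share with a neighbour was 17.5% within 5 kb and 43.8% within 20 kb. The proximal ratio was 1.32 with a window of 2 Mb and 1.37 without the region starting at 873423. The density ratio was 0.722 beyond 3 Mb. Without replicate 1 or 2 in turn the share found in neither ran from 83.4% to 86.7%, since 1 list then had to supply the overlap. Causes were otherwise not tested. The alternatives for the share held by the combined list and the proximal ratio without 1 region were chosen after seeing the data. No paired analysis was possible because a single condition was profiled and the input libraries gave no values here.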
